A study of Homo sapiens with 12 samples.

Results

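The response that HPPE, zinc protoporphyrin and tin protoporphyrin had in common was measured in SH-SY5Y cells by setting the 9 compound libraries as one side against the 3 solvent libraries. All 12 of the 12 samples of the series entered the comparison, in 4 groups of 3. SH-SY5Y is a human neuroblastoma line used as a model of neuronal cells. Cells of the control group received 10 µL of DMSO in 2 mL of medium. The other 3 groups received the same volume of DMSO with HPPE, zinc protoporphyrin or tin protoporphyrin at 5 µM. All wells were lysed after 5 h, so a single dose and a single time were sampled. The labels do not spell out HPPE. Zinc and tin protoporphyrin are the ring of heme with another metal in the place of iron.

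Genes that answer quickly to signals from outside the cell often do so through a few shared routes. The ERK branch of the MAP kinase pathway raises AP-1 subunits and, in the same wave, its own inhibitors such as the Sprouty proteins. Serum response factor (SRF), with its actin-sensing partners, and YAP, which binds DNA through TEAD proteins, both raise genes of the actin cytoskeleton and of the contacts between cells and matrix. Sterol-regulated genes respond to the cholesterol content of membranes, and NRF2, held back by KEAP1, raises antioxidant genes such as HMOX1.

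Library depth ran from 1337028 counts (zinc protoporphyrin replicate 1) to 9145399 counts (tin protoporphyrin replicate 2). Replicates also differed along 1 axis that held 52.7% of the variance within groups, with tin protoporphyrin 2 (score -0.41) and DMSO 1 (-0.40) at one end and DMSO 3 (0.57) and tin protoporphyrin 1 (0.36) at the other. The libraries DMSO 3, with 1514595 counts, and HPPE 3, with 3141853, were also shallow. After a filter on low counts 16366 genes were tested. Of 14 markers of noradrenergic neuroblastoma, DBH and CHGA were abundant, at a mean of 344 and 446 CPM (counts scaled to a common library size) in DMSO, while TH had at most 2 counts and INSM1 at most 1 count in any library. The summed level of the 14 markers was 5603 to 5904 CPM in the DMSO libraries and 4917 to 5512 CPM in the compound libraries, without overlap. Summed markers of Schwann cells and glia (8 genes, FOXD3 at 0) were 4.76 to 7.02 CPM in DMSO and 3.38 to 7.70 CPM with a compound. Leukocyte markers (7 genes, CD3E and LYZ at 0) were 1.85 to 1.98 CPM and 0.753 to 1.76 CPM. The labels do not say that replicates came from separate cultures, so the p-values measure only the spread between these samples, which may be technical. In RNA from whole wells, fewer cells of a type and less RNA per cell cannot be told apart.

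With the 3 compounds weighted equally, 367 genes were higher than in DMSO (2.24% of those tested) and 138 were lower (0.843%), by edgeR's quasi-likelihood test at an adjusted p under 0.05. A gene is called here when it passes that threshold. Increases were the larger changes: 85 of the genes that rose did so by at least 2-fold, against 7 of those that fell. The fold change had the same sign with every compound for 361 of the 367 genes that rose and for all 138 that fell. The stricter requirement that a gene be called in the same direction with each compound on its own was met by 100 genes that rose (0.611%) and 8 that fell (0.0489%). All 108 were also called in the pooled comparison. Beside them stood 421 genes higher (2.57%) and 241 lower (1.47%) with HPPE alone, 301 higher (1.84%) and 68 lower (0.415%) with zinc protoporphyrin, and 311 higher (1.90%) and 62 lower (0.379%) with tin protoporphyrin. The 3 single comparisons share the DMSO libraries, so anything that set those 3 libraries apart from the other 9 cannot be told apart from a shared response.

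Among the 505 genes called in the pooled comparison, 27 were called with none of the compounds alone, 192 with 1, 178 with 2 and 108 with all 3. The pooled log2 fold change of the 100 genes that rose with every compound ran from 0.32 to 7.04 with a median of 0.87, and that of the 8 genes that fell from -0.69 to -0.30 with a median of -0.55. The value of 7.04 belongs to MALL, which had no counts in DMSO, so its size is not a measured ratio. The next largest was 2.88, for SIRPG-AS1. The 100 genes had a median level of 39.6 CPM over the 12 libraries, against 21.3 CPM for all genes tested. Levels in the 9 compound libraries lay wholly above the DMSO libraries for 98 of the 100 genes, and wholly below for 8 of the 8. Over all genes tested 2.81% lay wholly above and 1.87% wholly below. The 2 exceptions were CNN2 and SLC12A8. The 108 genes were called from these same values, so their separation from DMSO is largely built in and adds no support. The rule that named the largest increases, the decreases and the most abundant genes also required it. Where a lack of overlap is given below, it describes the values only. The genes just inside the requirement were PRSS23 and HSPA2, whose largest adjusted p over the 3 edgeR comparisons was 0.048 and 0.0464, and just outside it stood DLX6 and ADAM12, both at 0.0509.

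**Figure D1:**
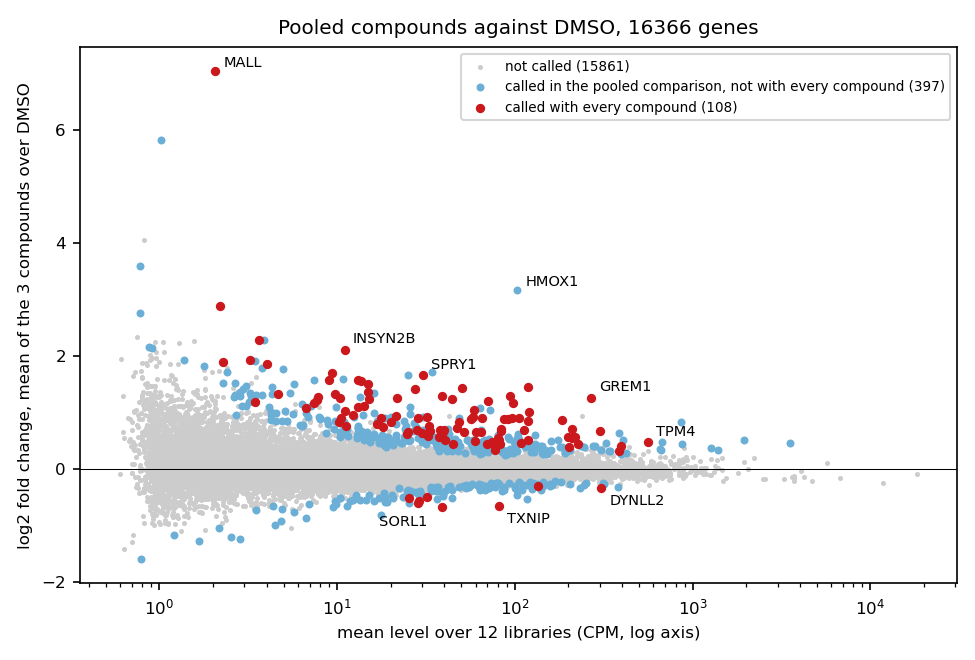
Each point is 1 of the 16366 genes tested, with its mean level over 12 libraries in CPM on a log axis across and the log2 fold change of the 3 compounds' mean over DMSO upwards. Red points are the 108 genes called with every compound, blue points the 397 called in the pooled comparison but not with every compound, and grey points genes not called. Red points lie mostly above 0 and extend to the level of TPM4, with MALL, which had no counts in DMSO, at the top and DYNLL2, SORL1 and TXNIP among the few below 0.

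Genes of the actin cytoskeleton and its anchors in the membrane made up the most fully called list. Of 17 tested genes known as targets of SRF and YAP, 11 rose in the pooled comparison and none fell, and 6 rose with every compound. The list's median pooled log2 fold change was 0.51, against 0.01 for all genes tested. The 6 were VCL, CNN2, TPM1, TGFB1I1, ANKRD1 and CCN1, and those that rose in the pooled comparison alone were ACTB, ACTG1, TAGLN, CNN1 and FLNA. With HPPE 12 members were called higher, with zinc protoporphyrin 7 and with tin protoporphyrin 10. This list and the others below were written with earlier results of these data known, so their counts are a description. Beside all of them stand the shares over all genes tested. These were 2.24% higher and 0.843% lower in the pooled comparison, and 0.611% higher with every compound.

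VCL, which encodes vinculin, the protein that ties integrin adhesions to actin, stood at 148, 139.5 and 138 CPM in the DMSO libraries and at 217 to 264 CPM (median 229) in the 9 compound libraries. All 9 lay far above the 3 DMSO libraries, and the compounds could hardly be distinguished from each other. The pooled log2 fold change was 0.70 ± 0.07 (SE, 3 DMSO against 9 compound libraries; edgeR adjusted p = 1.68e-05), and by compound it was 0.68 with HPPE, 0.70 with zinc and 0.72 with tin protoporphyrin. ANKRD1, an ankyrin repeat protein widely used as a readout of YAP, was at 4.76, 5.02 and 8.93 CPM in DMSO and at 11.3 to 23.1 CPM (median 15.9) with a compound. The groups did not overlap, and DMSO 3 came closest to the compound libraries. Its log2 fold change was 1.56 ± 0.18 (edgeR adjusted p = 4.67e-05). TPM1 and TPM4, tropomyosins that wrap actin filaments, rose by less: TPM1 went from 316, 325 and 327 CPM to 389 to 427 CPM (0.32 ± 0.06, edgeR adjusted p = 0.00552). TPM4, the most abundant of the genes that rose with every compound, went from 418, 441 and 441 CPM to 547 to 651 CPM (0.47 ± 0.07, edgeR adjusted p = 0.000429). For both tropomyosins every compound library was above every DMSO library. CNN2, calponin 2, was at 23.8, 24.8 and 31.9 CPM in DMSO and at 31.3 to 45.6 CPM (median 42.3) with a compound. It overlapped by 1 library, since zinc protoporphyrin 3 lay just under DMSO 3. Its log2 fold change was 0.68 ± 0.11 (edgeR adjusted p = 0.00126). The call of TPM1 was lost without DMSO 1 (adjusted p = 0.0579) and without DMSO 2 (0.0644).

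The SRF site known as the CArG box, searched on both strands in 300 bases of promoter (250 before to 50 after the start of transcription, RefSeq, GRCh38.p14), was present in 3 of the 83 genes that rose with every compound and had a promoter in the table, which is 3.61%, and in 1.09% of 11350 promoters of genes tested. The 3 genes were MYO1E, CNN2 and TPM4. The AP-1 site TGANTCA was present in 7 of the 83 (8.43%) and in 4.71% of all promoters, and the TEAD site GGAATG in 10 (12%) and in 11%. The other 4 motifs searched were the kappaB site (10 genes, 12%, against 6.58%), the cAMP response element TGACGTCA (4, 4.82%, against 3.28%), the antioxidant response element TGACNNNGC, which can overlap an AP-1 site (8, 9.64%, against 15.2%), and the sterol element SRE1 (0 of 83, against 0.0529%). The promoters of CNN2 (chr19:1026358-1026657, plus strand) and TPM4 (chr19:16067288-16067587, plus strand) are shown for their CArG box, in capitals, which spans bases -89 to -80 of CNN2 and -173 to -164 of TPM4, counted from the first transcribed base as 0. That of ANKRD1 (chr10:90921038-90921337, minus strand) is shown for holding an AP-1 site at -195 to -189 between TEAD sites at -220 to -215 and -128 to -123, and that of TFPI2 (chr7:93890704-93891003, minus strand) for its AP-1 site at -87 to -81, also in capitals. A match describes the letters and does not show that a factor binds there.
CNN2: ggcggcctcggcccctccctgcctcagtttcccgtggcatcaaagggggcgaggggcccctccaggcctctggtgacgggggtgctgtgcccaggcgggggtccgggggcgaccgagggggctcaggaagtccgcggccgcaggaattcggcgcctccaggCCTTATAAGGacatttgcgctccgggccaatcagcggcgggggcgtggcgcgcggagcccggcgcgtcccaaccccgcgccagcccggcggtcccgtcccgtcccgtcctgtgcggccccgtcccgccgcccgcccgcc
TPM4: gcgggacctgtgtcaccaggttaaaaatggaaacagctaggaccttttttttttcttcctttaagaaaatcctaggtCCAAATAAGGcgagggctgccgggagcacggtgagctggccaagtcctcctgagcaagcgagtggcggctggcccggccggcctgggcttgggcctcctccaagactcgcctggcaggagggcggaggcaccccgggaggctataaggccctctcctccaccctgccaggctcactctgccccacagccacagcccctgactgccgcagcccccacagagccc
ANKRD1: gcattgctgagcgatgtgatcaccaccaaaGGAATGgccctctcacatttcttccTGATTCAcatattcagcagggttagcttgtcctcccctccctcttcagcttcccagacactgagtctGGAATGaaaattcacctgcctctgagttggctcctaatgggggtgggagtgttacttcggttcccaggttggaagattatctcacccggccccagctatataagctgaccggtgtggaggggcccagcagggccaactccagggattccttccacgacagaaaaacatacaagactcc
TFPI2: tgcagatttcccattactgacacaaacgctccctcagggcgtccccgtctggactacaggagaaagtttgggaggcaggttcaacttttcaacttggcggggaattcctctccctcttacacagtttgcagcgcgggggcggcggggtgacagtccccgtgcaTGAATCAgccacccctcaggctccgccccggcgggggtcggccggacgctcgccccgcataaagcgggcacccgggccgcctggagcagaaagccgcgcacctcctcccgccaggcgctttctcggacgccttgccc

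Further genes of adhesion sites and the actin skeleton among the named genes were ACTN1, FERMT2, FBLIM1 and TGFB1I1. By family, 1 of 3 tested actinins and 1 of 3 tensins rose. ACTN1, the alpha-actinin that cross-links actin at adhesions, was at 165, 160.4 and 160.2 CPM in DMSO and at 223 to 248 CPM (median 242) with a compound. The separation was complete and the log2 fold change was 0.55 ± 0.06 (edgeR adjusted p = 3.21e-05). FERMT2, kindlin-2, which activates integrins, was at 158, 168 and 135 CPM in DMSO and at 220.0 to 234 CPM (median 227) with a compound. The 9 values lay within a narrow band above all 3 DMSO values (0.55 ± 0.07, edgeR adjusted p = 0.000107). FBLIM1, an adaptor between kindlins and filamins, was at 40.2, 41.6 and 35.7 CPM and at 63.2 to 80.5 CPM (median 76.0), again without overlap (0.90 ± 0.08, edgeR adjusted p = 2.26e-06). TGFB1I1, the paxillin relative Hic-5, was at 18.1, 19.4 and 20.4 CPM in DMSO and at 28.1 to 41.8 CPM (median 36.9), a log2 fold change of 0.91 ± 0.11 (edgeR adjusted p = 6.4e-05). The nuclear lamina gene LMNA and CORO1C, which encodes an actin-binding coronin, were among the 8 most abundant genes that rose with every compound, with log2 fold changes of 0.67 ± 0.07 (edgeR adjusted p = 1.44e-05) and 0.44 ± 0.07 (0.0012).

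Several genes of this kind were outside the rule for naming and were chosen after their values were seen. ZYX, zyxin of the focal adhesion, was at 46.8, 50.025 and 55.5 CPM in DMSO and at 85.5 to 148 CPM with a compound (1.17 ± 0.09, edgeR adjusted p = 9.91e-07). Of the filamins, which cross-link actin, FLNC rose with every compound (0.90 ± 0.09, edgeR adjusted p = 7.75e-06) and FLNA in the pooled comparison by 0.36 ± 0.08 (0.0123). Of 14 integrin genes tested, the 3 alpha subunits ITGA2, ITGA6 and ITGA3 rose, all with every compound and by 1.19, 1.09 and 0.55 on the log2 scale. ITGB1, the beta subunit that pairs with each of them, was at 425, 426 and 398 CPM in DMSO and at 405 to 482 CPM with a compound, and was not called (0.07 ± 0.06, edgeR adjusted p = 0.627). TNS1 (0.86 ± 0.10), CAVIN1 (0.70 ± 0.07), THBS1 (0.90 ± 0.09) and WDR1 (0.56 ± 0.07) also rose with every compound.

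Genes that the ERK pathway induces formed the next group. Of 19 tested genes of MAPK feedback, 7 rose in the pooled comparison and none fell (SPRY1, SPRY2, SPRY4, DUSP1, DUSP4, PHLDA1 and ETV4), with a median log2 fold change of 0.34 over the list. SPRY1, SPRY4 and PHLDA1 rose with every compound. SPRY1, a Sprouty inhibitor of receptor tyrosine kinase signalling, was at 10.7, 11.4 and 13.4 CPM in DMSO and at 28.3 to 39.1 CPM (median 37.5) with a compound. The lowest compound library was above 2 times the highest DMSO library, and the log2 fold change was 1.66 ± 0.11, or 3.16-fold (edgeR adjusted p = 9.27e-08). SPRY4 was more abundant and rose by less, from 82.4, 83.7 and 86.1 CPM to 107 to 129.5 CPM (0.46 ± 0.07, edgeR adjusted p = 0.000758). PHLDA1 was at 7.54, 6.47 and 3.83 CPM in DMSO and at 8.55 to 12.9 CPM with a compound (0.82 ± 0.15, edgeR adjusted p = 0.0055), and its call was lost without DMSO 2 (adjusted p = 0.0832). ETV4 rose by 0.34 ± 0.08 (edgeR adjusted p = 0.0239) while its relative ETV1 was among the genes that fell.

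Secreted products and receptors known as targets of this pathway were also called: 6 of 10 tested rose, among them TFPI2, VGF, HBEGF, IL11 and LIF, with a list median of 0.90. TFPI2, a secreted inhibitor of serine proteases, was at 44.4, 46.5 and 42.1 CPM in DMSO and at 91.5 to 132 CPM (median 109) with a compound. No compound library came near the DMSO values, and the log2 fold change was 1.29 ± 0.09 (edgeR adjusted p = 1.62e-07). VGF, a neuropeptide precursor induced by nerve growth factor, was at 456, 529 and 603 CPM in DMSO and at 481 to 1293 CPM with a compound (0.83 ± 0.14, edgeR adjusted p = 0.00272). It overlapped DMSO through zinc protoporphyrin 3, and its call was lost when all 9 compound libraries were fitted with a single mean (adjusted p = 0.106).

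Of 20 tested AP-1 and other immediate early genes, 6 rose and none fell (JUN, FOSL1, FOSL2, EGR1, KLF6 and CCN1), with a list median of 0.37. KLF6, a zinc finger factor, was at 56.8, 54.2 and 58.7 CPM in DMSO and at 90.3 to 111 CPM (median 104) with a compound. The groups were far apart for this gene (0.88 ± 0.07, edgeR adjusted p = 8.02e-07). FOSL2, a FOS relative, was at 65.6, 56.1 and 47.2 CPM and at 79.9 to 103 CPM (median 93.6), a log2 fold change of 0.67 ± 0.09 (edgeR adjusted p = 0.000267). FOS itself, read at this single time, was at 2.38 to 4.47 CPM in DMSO and at 1.80 to 4.06 CPM with a compound and was not called (0.14 ± 0.27, edgeR adjusted p = 0.873). CCN1, a secreted matrix protein that is also a target of SRF and YAP and is counted in both lists, was at 18.7, 22.6 and 22.3 CPM and at 32.5 to 78.5 CPM (median 52.3), a log2 fold change of 1.24 ± 0.14 (edgeR adjusted p = 3.5e-05).

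**Figure D2:**
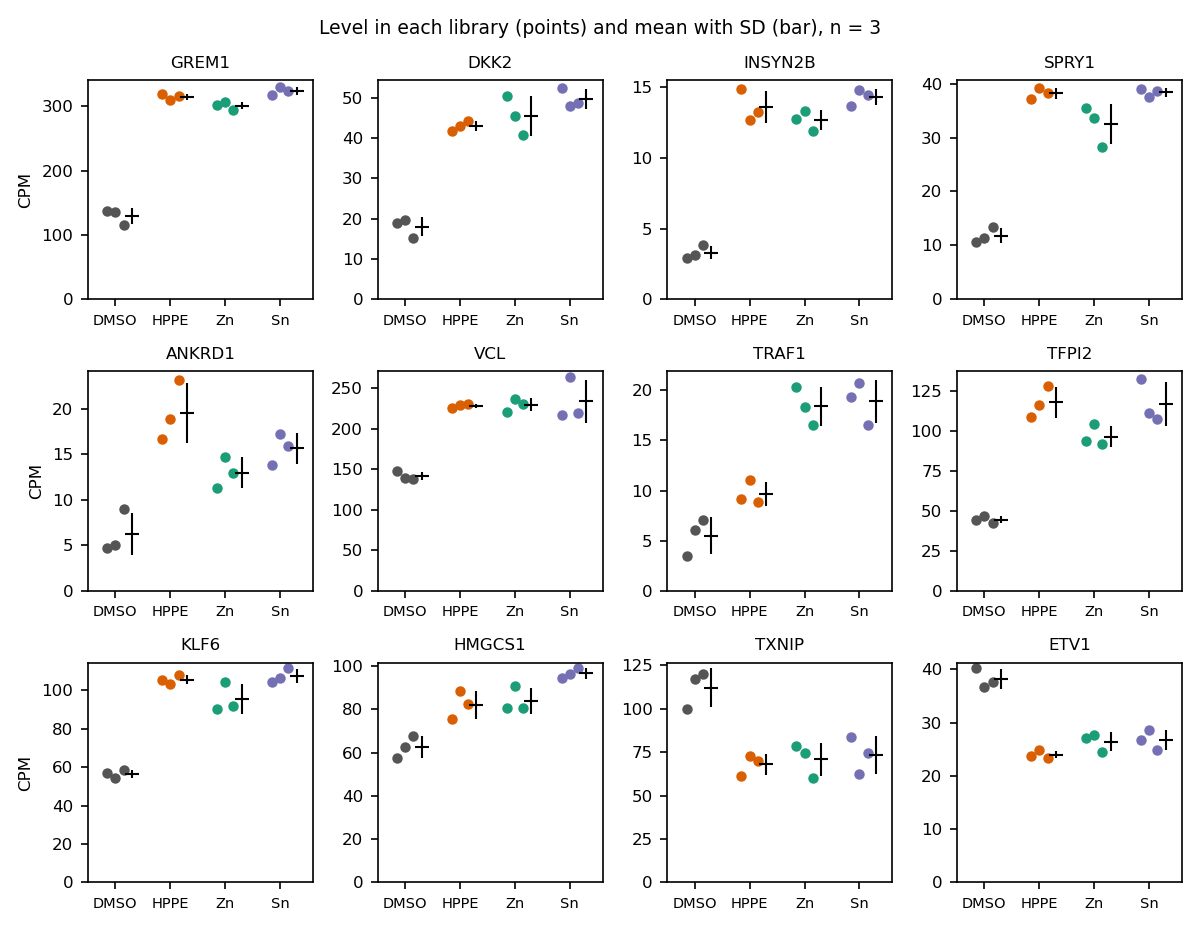
Points show the level in CPM (linear axis from 0) of 12 genes in each of the 3 libraries of the DMSO, HPPE, zinc protoporphyrin (Zn) and tin protoporphyrin (Sn) groups, with the group mean and SD beside them. For all 12 genes the compound libraries do not overlap the DMSO libraries; 10 are higher, TXNIP and ETV1 are lower, and for TRAF1 the HPPE libraries stand below those of the other 2 compounds.

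GREM1, DKK2, DKK1 and INHBA, which encode secreted regulators or ligands of BMP, Wnt and activin signalling, each rose with every compound. GREM1, gremlin 1, a secreted antagonist of BMPs (chr15:32718004-32745106), was at 137, 136 and 116 CPM in DMSO. It was at 319, 310.3 and 316 CPM with HPPE, at 303, 306 and 295 CPM with zinc protoporphyrin and at 318, 330.4 and 324 CPM with tin protoporphyrin. The 9 compound values formed a narrow band above 2 times every DMSO value. The pooled log2 fold change was 1.26 ± 0.07 (2.39-fold, edgeR adjusted p = 1.41e-08). DKK2, a Dickkopf modulator of Wnt co-receptors, was at 19.1, 19.7 and 15.3 CPM in DMSO and at 40.7 to 52.5 CPM (median 45.4) with a compound. Its lowest compound library was again above 2 times its highest DMSO library (1.28 ± 0.10, edgeR adjusted p = 3.54e-07). DKK1, chosen after its values were seen, also rose with every compound (1.03 ± 0.13, edgeR adjusted p = 0.000178).

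INHBA, the activin A subunit, was at 11.6, 10.4 and 9.57 CPM in DMSO and at 14.9 to 23.2 CPM (median 19.4) with a compound (0.79 ± 0.12, edgeR adjusted p = 0.000716). ID4, a helix-loop-helix inhibitor that BMPs induce in many cells, was at 18.3, 15.4 and 20.4 CPM and at 24.1 to 31.8 CPM (0.61 ± 0.11, edgeR adjusted p = 0.00428), and its call was lost without DMSO 2 (0.50, adjusted p = 0.11). Both genes separated the groups completely. They and GREM1 were 3 of few called members of their lists: 2 of 16 BMP antagonists and targets rose (median 0.15), and 3 of 12 TGF-beta targets (INHBA and TGFB1 among them, median 0.24). TGFB1 was not called without DMSO 1 (adjusted p = 0.198).

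Likeness to GREM1 was measured as Pearson's r of log2 CPM over the 12 libraries among 11940 genes with a mean of at least 5 CPM. The 5 closest genes were DKK2 (r = 0.986), INSYN2B (0.982), FERMT2 (0.981), ACTN1 (0.978) and FBLIM1 (0.976). These values mainly reflect the step between DMSO and the compound groups that all 5 share, and they carry no test.

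Cholesterol genes were partly called. Of 19 tested genes of sterol synthesis and uptake, 7 rose and none fell, among them INSIG1, HMGCS1, SQLE, MSMO1 and STARD4, with a median log2 fold change of 0.29. By compound 5 members were higher with HPPE, 3 with zinc and 9 with tin protoporphyrin. HMGCS1, an early enzyme of the pathway, was at 57.5, 62.6 and 67.6 CPM in DMSO and at 75.7 to 99.4 CPM (median 88.4) with a compound. The groups did not overlap, and the log2 fold change was 0.51 ± 0.08 (edgeR adjusted p = 0.00071). INSIG1, which restrains the pathway, rose in the pooled comparison (0.62 ± 0.10, edgeR adjusted p = 0.00109) with log2 fold changes of 0.36 with HPPE, 0.65 with zinc and 0.84 with tin protoporphyrin.

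Among genes called with every compound, the largest fold changes belonged to genes of low level. MALL, a membrane proteolipid of the MAL family, had 0 counts in all 3 DMSO libraries and 5 to 34 counts in each compound library. It stood at 1.44 to 4.73 CPM with a compound. The mean of the 3 compound groups was at least 3.04-fold above a floor of 3 counts, which averaged 0.902 CPM over the DMSO libraries. In the shallow library DMSO 3 this floor was 1.91 CPM, above the lowest compound library. It passed the filter on low counts only through the compound libraries, so its test is not given as support. The same holds for SIRPG-AS1, SPOCD1, EDN1, CEBPD and FLT1, whose DMSO counts alone would not have passed. INSYN2B (chr5:169861303-169980495) was at 2.91, 3.17 and 3.83 CPM in DMSO and at 11.9 to 14.9 CPM (median 13.3) with a compound. The compound values clustered closely and lay above 3 times every DMSO value (2.11 ± 0.15, 4.31-fold, edgeR adjusted p = 3.22e-07). SIRPG-AS1, an antisense RNA, was at 0.529, 0.264 and 0 CPM in DMSO and at 1.75 to 3.73 CPM (median 3.01) with a compound (log2 fold change 2.88). Whether strand was used in counting is not given in the sources used here, and SIRPG had 0 counts in DMSO and 0.317 to 3.76 CPM with a compound, so the reads of the pair cannot be told apart.

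SPOCD1 had 5, 7 and 2 counts in the DMSO libraries, or 0.661, 0.924 and 1.28 CPM, and stood at 3.25 to 6.78 CPM with a compound (log2 fold change 2.28). EDN1, the vasoactive peptide endothelin 1, was at 1.06, 1.06 and 0.638 CPM in DMSO and at 2.26 to 7.65 CPM (median 3.13), a log2 fold change of 1.93. CEBPD, a transcription factor of acute responses, was at 0.638 to 0.794 CPM and at 1.92 to 4.13 CPM, a log2 fold change of 1.90. Its pooled call was lost without DMSO 2 (edgeR adjusted p = 0.0698). All 3 genes were at low counts in DMSO. They had no overlap, but the rule that named them required this, so it adds no support. FLT1, a receptor for vascular endothelial growth factors, was at 1.19, 1.19 and 2.55 CPM and at 3.49 to 5.96 CPM (log2 fold change 1.85). PTGS1, cyclooxygenase 1, was at 3.70, 2.90 and 3.19 CPM and at 6.74 to 14.9 CPM (1.70 ± 0.20, edgeR adjusted p = 8.24e-05). UBASH3B, a phosphatase that acts on tyrosine kinases, was at 3.84, 3.56 and 2.55 CPM and at 8.91 to 13.4 CPM (1.57 ± 0.19, edgeR adjusted p = 8.52e-05). In each of these 3 the groups were separate, which that rule also required. TRAF1, an adaptor of TNF receptors, was at 3.44, 6.07 and 7.02 CPM in DMSO, at 8.87 to 11.1 CPM with HPPE and at 16.5 to 20.7 CPM with zinc or tin protoporphyrin (1.57 ± 0.18, edgeR adjusted p = 6.58e-05).

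CD44 and ALCAM, both proteins of the cell surface, rose with every compound. CD44, the hyaluronan receptor and the single called gene among 7 tested markers of mesenchymal neuroblastoma, was at 38.4, 37.0 and 30.6 CPM in DMSO and at 51.7 to 60.9 CPM (median 57.6) with a compound (0.64 ± 0.08, edgeR adjusted p = 6.74e-05). The separation was complete, and the summed level of the list of 10 mesenchymal markers was 860.1 to 993.6 CPM in DMSO and 961.8 to 1152 CPM with a compound. ALCAM, an adhesion molecule of neurons and their tumours, was at 344, 327 and 282 CPM and at 389 to 473 CPM (0.41 ± 0.07, edgeR adjusted p = 0.00422), and its call was lost without the 3 shallow libraries (adjusted p = 0.0617). Outside the rule for naming, and chosen after their values were seen, CD274 (1.25 ± 0.16), IL4R (1.27 ± 0.17) and the growth factor FGF5 (1.33 ± 0.18) also rose with every compound.

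Only 8 genes fell with every compound, all by less than 2-fold. SORL1, a sorting receptor for the amyloid precursor protein, was at 59.9, 53.5 and 44.0 CPM in DMSO and at 26.2 to 39.9 CPM (median 35.6) with a compound. Its DMSO values were spread, and its groups were separate, which the rule that named the decreases required (-0.69 ± 0.10, edgeR adjusted p = 0.000801). TXNIP, an arrestin-like protein that binds thioredoxin and limits glucose uptake, was at 99.6, 117 and 120.0 CPM and at 60.3 to 84.0 CPM (median 73.0), a log2 fold change of -0.66 ± 0.10 (edgeR adjusted p = 0.000634). BMF, a BH3-only promoter of apoptosis, was at 38.0, 38.3 and 38.9 CPM in DMSO and at 20.9 to 30.4 CPM (median 25.8) with a compound (-0.61 ± 0.08, edgeR adjusted p = 0.00015). The 3 DMSO libraries were nearly equal for BMF, and the HPPE libraries were the lowest. ETV1, an ETS factor of the PEA3 family, was at 40.3, 36.7 and 37.6 CPM and at 23.4 to 28.6 CPM (median 24.9), also without overlap (-0.58 ± 0.08, edgeR adjusted p = 0.000574).

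The others included DYNLL2, a dynein light chain (-0.35 ± 0.06, edgeR adjusted p = 0.00364), the antisense RNA PSMG3-AS1 (-0.50 ± 0.09, 0.00394) and the gene listed as ENSG00000258634, which had no symbol (-0.53 ± 0.09, 0.00381). PSMG3, on the other strand of PSMG3-AS1, was not called (0.03 ± 0.19, adjusted p = 0.977), and its reads cannot be told apart from the antisense gene's where they overlap. Leaving out 1 DMSO library ended the pooled call of each of these 3. Without DMSO 1 the adjusted p was 0.0805 for ENSG00000258634 and 0.114 for PSMG3-AS1, and without DMSO 2 it was 0.0511 for ENSG00000258634 and 0.0677 for DYNLL2.

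Neuronal identity genes were rarely called. Of 12 tested noradrenergic markers none rose and 1 fell in the pooled edgeR comparison, with 1 higher and 5 lower at an unadjusted p under 0.05. Over all 16366 genes tested, 2569 had an unadjusted p under 0.05 in either direction. DESeq2 called none of the 12 higher and 2 lower, against 327 higher and 116 lower over all 16366 genes. Of the 12, 1 had a pooled log2 fold change above 0, against 51.5% of all genes tested, and the list's median was -0.12. CHGA, the granule protein chromogranin A, chosen after its values were seen, was at 419.8, 434 and 485 CPM in DMSO and at 301 to 426 CPM with a compound, and was not called (-0.27 ± 0.08, edgeR adjusted p = 0.0856). Among 19 neurotransmitter and channel genes, the noradrenaline transporter SLC6A2 (-0.29 ± 0.06, edgeR adjusted p = 0.0149) and the nicotinic receptor subunit CHRNA3 (-0.23 ± 0.06, 0.0389) fell and none rose. The call of SLC6A2 was lost without DMSO 1 (adjusted p = 0.115) or DMSO 2 (0.173), and that of CHRNA3 without any of several libraries (up to 0.196 without DMSO 1). Of 8 fibroblast markers 2 rose (DCN and PDGFRB) and 2 fell (COL3A1 and PDGFRA). Their summed level was 595.8 to 629.8 CPM in DMSO and 544.1 to 634.5 CPM with a compound. Without DMSO 2 the calls of DCN (adjusted p = 0.136) and PDGFRA (0.0719) were lost. The part of these marker levels in the other results was not tested.

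The difference among the 3 compounds was tested without the DMSO libraries in the contrast. An F test over the compounds called 710 genes (4.34%), of which 616 were not called in the pooled comparison. Among the 505 genes called in the pooled comparison 94 differed among compounds (18.6%), and HPPE had the most extreme fold change in 59 of them. Of the 108 genes called with every compound, 17 differed, and 40 had an unadjusted p under 0.05 in this F test. For 9 of the 17 HPPE gave the largest change, for 7 tin protoporphyrin and for 1 zinc protoporphyrin. For the 108 genes the gap between the largest and the smallest of the 3 log2 fold changes had a median of 0.22, and it was under 0.2 for 45 of them.

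For some abundant genes without a called difference, such as GREM1, VCL and FERMT2, the intervals were narrow and held 0. For GREM1 the difference on the log2 scale was 0.06 (95% interval -0.09 to 0.22) between HPPE and zinc protoporphyrin, -0.04 (-0.20 to 0.11) between HPPE and tin protoporphyrin, and -0.11 (-0.26 to 0.05) between zinc and tin protoporphyrin. VCL gave -0.01 (interval -0.19 to 0.16), then -0.04 (-0.21 to 0.14), then -0.02 (-0.20 to 0.15) for these 3 pairs. For FERMT2 they were 0.00 (-0.16 to 0.17), -0.04 (-0.20 to 0.12) and -0.04 (-0.21 to 0.12). The widest bounds for these 3 genes were -0.26 and 0.22. Not every such gene was as even. For LMNA the interval of HPPE minus zinc protoporphyrin excluded 0, at 0.20 (0.03 to 0.37), while those of its other pairs held 0.

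For several genes of the shared set HPPE differed from the metal porphyrins. ABCC3, an export pump for conjugated compounds chosen after its values were seen, was at 10.3 to 12.1 CPM in DMSO, 53.4 to 56.4 CPM with HPPE, 17.8 to 24.1 CPM with zinc and 20.6 to 25.3 CPM with tin protoporphyrin (F test among compounds, edgeR adjusted p = 4.45e-07). On the log2 scale it was higher with HPPE than with zinc protoporphyrin by 1.46 (1.21 to 1.71) and than with tin protoporphyrin by 1.27 (1.04 to 1.49), while zinc and tin differed by -0.19 (-0.45 to 0.06). PLAT, tissue plasminogen activator, also chosen after its values were seen, rose by 1.69 with HPPE, 0.90 with zinc and 1.16 with tin protoporphyrin on the log2 scale (F test among compounds, edgeR adjusted p = 0.00257). CCN1 also differed among the compounds (F test, edgeR adjusted p = 0.00363). Of its 3 pairs, that of HPPE above zinc protoporphyrin was called, by 0.94 (0.64 to 1.25, edgeR adjusted p = 0.00124). HPPE minus tin was 0.42 (0.15 to 0.70, adjusted p = 0.143) and zinc minus tin was -0.52 (-0.82 to -0.22, 0.353), and neither was called. The intervals of pairs are 95% intervals that are not adjusted for the number of genes.

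Other genes had another order. TRAF1, which differed among the compounds (F test, edgeR adjusted p = 0.00887), rose by less with HPPE than with zinc protoporphyrin, by a difference of -0.85 (-1.23 to -0.47, adjusted p of the pair 0.011). It also rose by less with HPPE than with tin protoporphyrin, by -0.94 (-1.30 to -0.59, 0.00621), while zinc minus tin was -0.09 (-0.43 to 0.25, 0.833). RTL1, chosen after its values were seen, was at 14.7 to 18.3 CPM in DMSO, 21.8 to 23.4 CPM with HPPE, 33.4 to 37.6 CPM with zinc and 37.2 to 42.1 CPM with tin protoporphyrin (F test among compounds, edgeR adjusted p = 0.000663). The soluble pattern recognition protein PTX3, chosen likewise, was highest with tin protoporphyrin, at 19.2 to 27.9 CPM (F test among compounds, edgeR adjusted p = 0.0219), and zinc minus tin was -0.79 (-1.15 to -0.42). BMF fell by 0.87 with HPPE, by 0.40 with zinc and by 0.56 with tin protoporphyrin on the log2 scale (F test among compounds, edgeR adjusted p = 0.0325), the largest decrease being with HPPE.

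**Figure D3:**
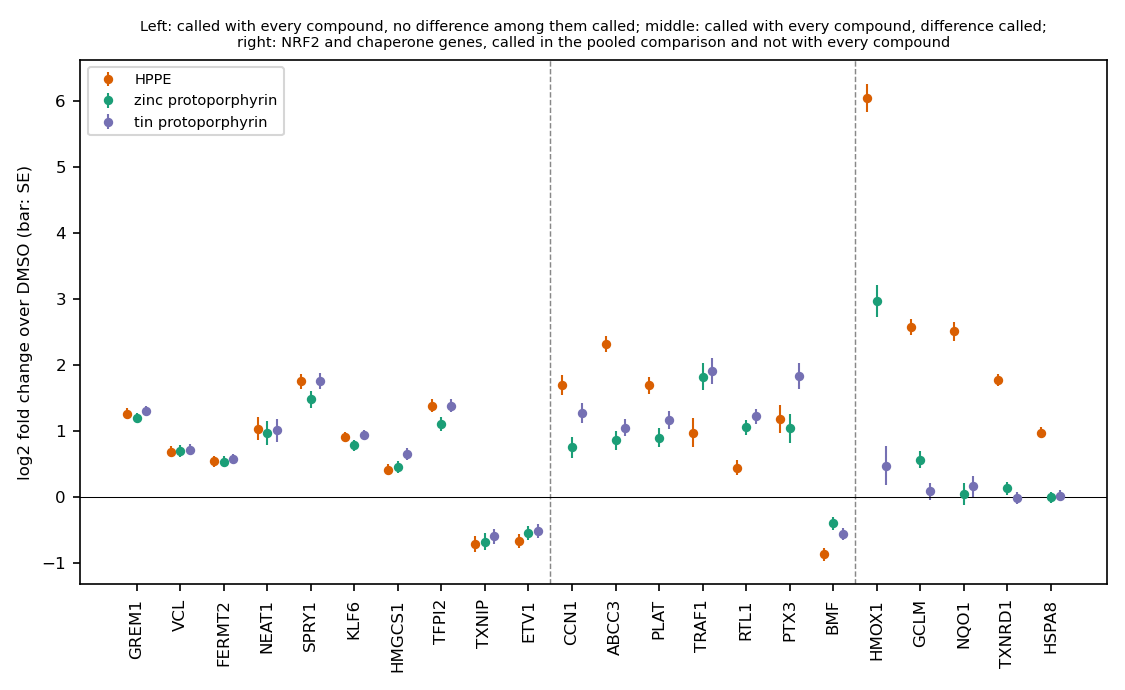
Points give the log2 fold change over DMSO (linear axis) of HPPE, zinc protoporphyrin and tin protoporphyrin for 22 genes, with bars of 1 SE; each group holds 3 libraries. On the left the 3 compounds lie close together, as for GREM1 at 1.26, 1.20 and 1.31; in the middle HPPE stands apart for ABCC3 and PLAT; on the right HPPE reaches 6.04 for HMOX1 while tin protoporphyrin is at 0.47.

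Genes called in the pooled comparison were therefore not all shared. HMOX1, heme oxygenase 1, was at 5.42, 4.62 and 7.66 CPM in DMSO, at 332, 365 and 358 CPM with HPPE, at 67.8, 43.3 and 29.8 CPM with zinc protoporphyrin and at 7.97, 7.20 and 6.96 CPM with tin protoporphyrin. HPPE and zinc libraries lay far above DMSO, and the tin libraries overlapped it. The pooled log2 fold change of 3.16 ± 0.22 (edgeR adjusted p = 1.86e-07) averages 6.04, 2.97 and 0.47. Of 24 tested NRF2 targets, 10 rose in the pooled comparison, none rose with every compound and 21 differed among compounds. With HPPE 20 of the 24 were called higher, with zinc protoporphyrin 2 and with tin protoporphyrin none. The export pump ABCC3, described above, was outside this list and rose with every compound. Its log2 fold change was 2.32 with HPPE, 0.86 with zinc and 1.05 with tin protoporphyrin. In a contrast that pools zinc and tin protoporphyrin and leaves HPPE out, 1 of the 24 was called higher, against 404 of all 16366 genes tested. At that share a list of this size would hold few or no called genes. TXNRD1, thioredoxin reductase 1, was called in the pooled comparison at 0.62 ± 0.08 (edgeR adjusted p = 0.000135) with 1.77 for HPPE, 0.13 for zinc and -0.02 for tin.

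The listed heat shock and chaperone genes showed the same division. Of 17 tested, 4 rose in the pooled comparison (HSPA1A, HSPA8, HSPH1 and DNAJB4), none with every compound, 12 with HPPE and none with zinc or tin protoporphyrin alone. Outside this list HSPB8 and HSPA2, chosen after their values were seen, rose with every compound. Their log2 fold changes with HPPE, zinc and tin protoporphyrin were 1.69, 0.87 and 1.10 for HSPB8 and 0.70, 0.50 and 0.53 for HSPA2. HSPA8 had a log2 fold change of 0.97 with HPPE and 0.02 with tin protoporphyrin. Without DMSO 2 the pooled call was lost for HSPA1A (adjusted p = 0.17), HSPA8 (0.131) and HSPH1 (0.109). The reads of HSPA1A may be split with its near-identical copy HSPA1B, so its value is uncertain. Of 6 genes called in the pooled comparison with at least 1 compound of the opposite sign, TXNRD1, HSPA8 and HSPA1A had the lowest p. Metallothioneins and genes of the metal response (7 tested, 6 higher with HPPE, none with zinc or tin protoporphyrin) had none called in the pooled edgeR comparison and 4 higher at an unadjusted p under 0.05. Of 23 heme and iron genes none was called there, with 1 higher and 2 lower at an unadjusted p under 0.05, while 6 were higher with HPPE, 2 were lower with zinc protoporphyrin and 8 differed among the compounds. DESeq2 called none in either list, against 327 higher and 116 lower over all 16366 genes. An unadjusted p under 0.05 was reached by 2569 of all 16366 genes tested.

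The listed NF-kappaB targets leaned the other way. Of 8 tested, 3 rose in the pooled comparison (CCL2, RELB and NFKB2, median 0.49), none with every compound. With tin protoporphyrin 5 were called higher, with zinc 3 and with HPPE none. The TNF receptor adaptor TRAF1 was outside this list and rose with every compound. Its log2 fold change was 0.97 with HPPE, 1.82 with zinc and 1.91 with tin protoporphyrin. RELB was at 6.09, 4.75 and 4.47 CPM in DMSO, 8.50 to 8.85 CPM with HPPE, 11.3 to 15.05 CPM with zinc and 9.34 to 14.8 CPM with tin protoporphyrin (1.08 ± 0.19, edgeR adjusted p = 0.0036), without overlap with DMSO. A difference among compounds was not called for RELB (0.107). Its pooled call was lost without DMSO 2 (adjusted p = 0.0796), as was that of NFKB2 (0.287), and that of CCL2 without DMSO 1 (0.152).

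Smaller counts were seen elsewhere, against 2.24% of all genes tested higher and 0.843% lower. At those shares lists of these sizes would hold few or no called genes, so a list without a call says little. Of 6 tested cAMP and CREB targets 3 rose (CREM, VIP and PDE4B), of 19 circadian clock genes 2 (NPAS2 and RORB), of 29 hypoxia and glycolysis genes 2 (PFKP and PFKFB3), and of 18 lysosome and autophagy genes 2 (TFEB and SQSTM1). TFEB had 6, 12 and 3 counts in the DMSO libraries. It passed the filter on low counts only through the compound libraries, so its call is not given as support. Of 17 p53 targets GDF15 rose and TP53INP1 fell, and GDF15 was also the called gene of 23 ATF4 targets. Of 4 aryl hydrocarbon receptor genes NQO1 rose. Each of the calls of CREM, VIP, PDE4B, NPAS2, RORB, PFKP, PFKFB3, TFEB, GDF15 and TP53INP1 was lost when 1 library was left out. CREM and NPAS2 were lost in 13 and 12 of 26 alternatives and VIP, RORB and TP53INP1 in 16 each, with the direction kept. Without DMSO 1 the adjusted p was 0.321 for CREM, 0.358 for VIP, 0.152 for PFKFB3 and 0.128 for TFEB. Without DMSO 2 it was 0.11 for PDE4B, 0.312 for NPAS2, 0.22 for RORB, 0.18 for PFKP, 0.0648 for GDF15 and 0.271 for TP53INP1. None was called in either direction in the pooled edgeR comparison among 16 genes of the unfolded protein response, 10 of fatty acid synthesis, 9 of interferon, 25 of axon guidance, 18 of S phase, 18 of mitosis, 15 MYC targets, 32 proteasome subunits, 9 histone genes, 2 Schwann and glial genes and 13 genes of mitochondrial DNA. At an unadjusted p under 0.05, 3 genes of the unfolded protein response, 2 of fatty acid synthesis, 1 of interferon, 2 of axon guidance, 1 of S phase, 1 MYC target and 2 proteasome subunits were higher. By the same measure 1 gene of interferon, 4 of axon guidance, 3 of mitosis, 1 histone gene and 2 of mitochondrial DNA were lower. Over all genes tested 2569 of 16366 passed this measure in either direction, so these counts are not read as a response. DESeq2 called 1 gene of axon guidance lower, 1 of S phase higher and none in the other 9 lists. Over all 16366 genes it called 327 higher and 116 lower. The mitochondrial genes had a median of -0.18 and all 13 were below 0, and their share of counts was 5.31% to 8.27% of a library. The share was highest in DMSO 1. Of the 108 genes called with every compound, 89 were in none of the lists.

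**Figure D4:**
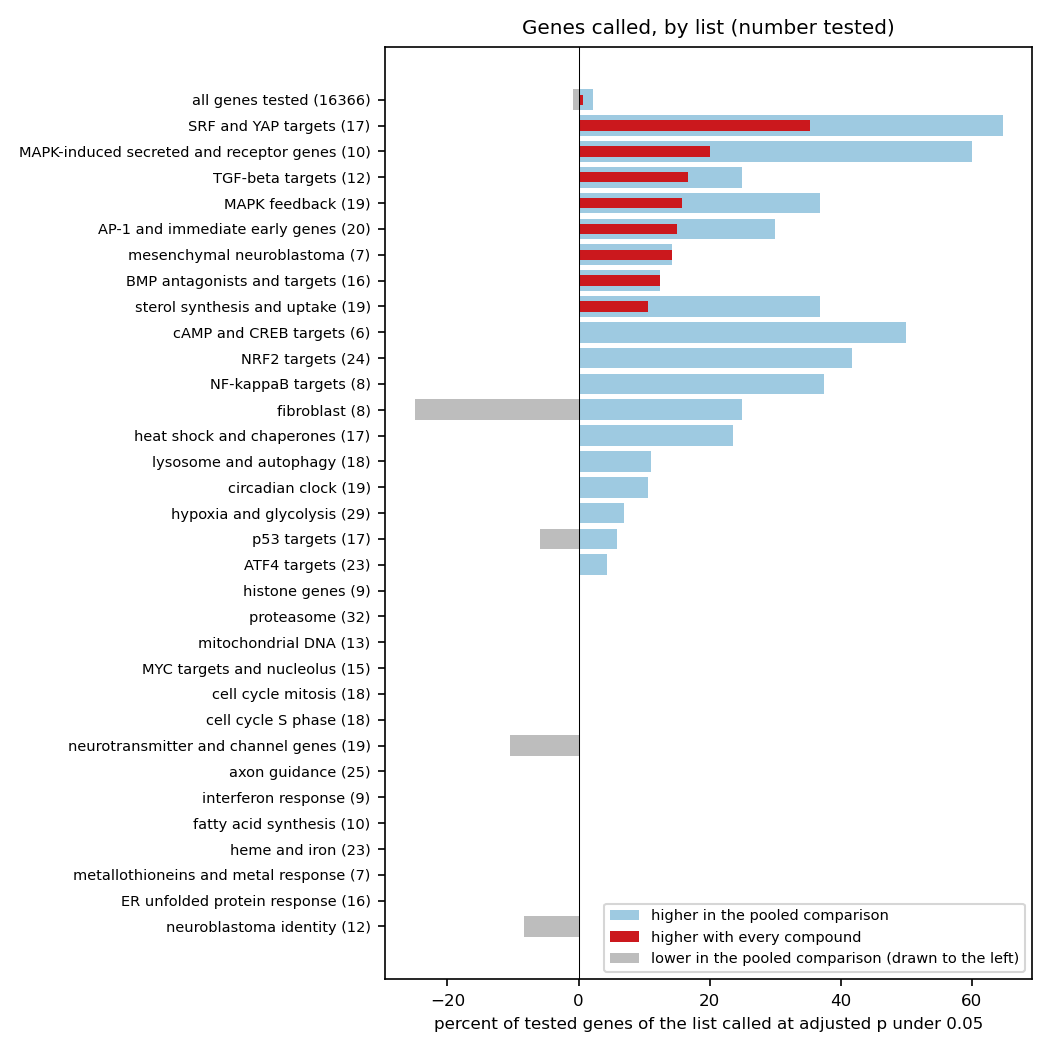
Bars show, for each list with its number of tested genes, the percent called higher in the pooled comparison (blue), higher with every compound (red) and lower in the pooled comparison (grey, drawn to the left). SRF and YAP targets have the longest red bar, with 6 of 17, while NRF2 targets have 10 of 24 in blue and no red.

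Genes of the shared set had long transcripts. The longest transcript in GENCODE 29 had a median of 4665.5 nt for the 100 genes that rose with every compound and 5411.5 nt for the 8 that fell, against 3327 nt over the 16185 genes with a length. Across genes, Spearman's rho of log2 fold change with length was -0.13 for the pooled comparison, -0.24 for HPPE, 0.09 for zinc and -0.18 for tin protoporphyrin; genes share libraries and are not replicates, so no p is given. The part of length in the shared response was not tested.

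The number of shared genes depended on the DMSO libraries. Without DMSO 2, 38 genes rose with every compound, and without DMSO 1, 54 did. It was 66 without HPPE 2, 64 without zinc protoporphyrin 2 and 61 without zinc protoporphyrin 3, and 130 without tin protoporphyrin 2. Of the 108 genes, 38 remained called without DMSO 2 and 43 without the 3 shallowest libraries. In all 21 settings in which they could be counted, leaving aside the library axis, 31 genes stayed called in the same direction with every compound, and all 31 rose. They include GREM1, DKK2, SPRY1, INSYN2B, VCL, ACTN1, FERMT2, FBLIM1, ZYX, FLNC, TNS1, ITGA2, ANKRD1, TFPI2, KLF6, FOSL2, CD44, LMNA and UBASH3B. None of the 8 genes that fell was among them.

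**Figure D5:**
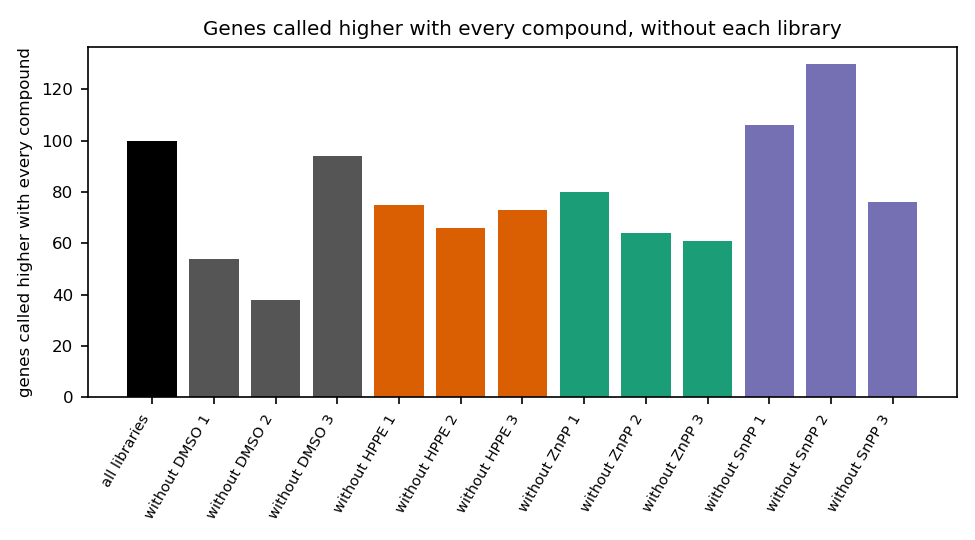
Bars (axis from 0) count the genes called higher with every compound in all 12 libraries (black, 100) and with each library left out in turn. The count is lowest without DMSO 2, at 38, and highest without tin protoporphyrin 2, at 130.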

How the data were processed

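Whole-number read counts per gene were used as the authors deposited them, for 12 libraries of SH-SY5Y cells. Per the submitters' processing notes, fastp 0.21.1, STAR 2.7.7a and featureCounts were used with GRCh38; the annotation release and the strand setting are not given in the sources used here. The table held 60710 genes, 60481 with a matched symbol, and no column outside the 12 samples.

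In edgeR 4.0.16 (R 4.3.3), filterByExpr by group kept 16366 genes with 99.6% of counts. Library sizes were scaled by TMM, and CPM were computed with them. One quasi-likelihood model (glmQLFit, robust) held a mean per group; its biological coefficient of variation was 0.0913. The contrasts were the mean of the 3 compounds minus DMSO, each compound minus DMSO, and an F test among compounds, all two-sided with Benjamini-Hochberg adjustment over all genes tested. Standard errors came from the F statistic. A floor of 3 counts was used for genes at 0 in DMSO. The floor covers counting error only, since reads carry no molecular identifiers.

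HPPE 2 and 3 differed least of the replicate pairs (chi-square per degree of freedom 1.11, against 1.49 to 17.4 in the other pairs) but beyond sampling noise (p = 1.33e-19 over 14244 genes), so both were kept. The procedure was tested on simulated data.

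The members and the 35 gene lists were chosen with earlier results of these data known. Genes were named by rule: HMOX1; among genes called with every compound, without overlap and at a mean of at least 1 CPM, the 12 largest increases, the 8 decreases and the 8 most abundant; the 5 lowest p of the F test among genes called in the pooled contrast; listed genes called with every compound and up to 3 called genes of each list; up to 3 genes with at least 1 compound of opposite sign; and the 5 genes most like GREM1. Other genes are marked as chosen after their values were seen. A few genes within these rules and lists are counted but not reported by name. Alternatives were other filters, RLE or unscaled library sizes, DESeq2 1.42.0, no robust weights, one mean for the 9 libraries, the replicate number as a block, a library axis (the first principal component of deviations from group means, 52.7% of their variance over 10972 genes) as a covariate, HPPE 2 and 3 summed, the 3 shallowest libraries left out, each library left out, and each compound left out of the pooled contrast. Gene positions and promoters are RefSeq's for GRCh38.p14, and 106 of the 108 genes matched.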

Additional observations from a re-analysis of the deposited data

Results flagged for a closer look

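Of the genes named by rule and reported here, 18 differed among the 3 compounds by the F test of that difference (edgeR adjusted p under 0.05 over all genes tested), with 3 libraries per compound. In the NRF2 list they were HMOX1 (adjusted p = 1.22e-11), GCLM (2.02e-10), TXNRD1 (8.36e-10), OSGIN1 (8.36e-10), NQO1 (2.21e-09) and SQSTM1 (2.89e-07), each highest with HPPE. In the chaperone list they were HSPA1A (4.12e-08), HSPA8 (9.64e-07), DNAJB4 (1.49e-06) and HSPH1 (6.55e-06), also highest with HPPE. PFKFB3 (0.000719), CCN1 (0.00363), VGF (0.0133) and GDF15 (0.0486) rose most with HPPE, and BMF (0.0325) fell most with it. TRAF1 (0.00887) rose least with HPPE and by similar amounts with zinc and tin protoporphyrin. CCL2 (0.0344) and INSIG1 (0.0354) were highest with tin protoporphyrin. CCN1, TRAF1 and BMF were called with every compound, so for these 3 the compounds moved the gene the same way by different amounts.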

How the results depend on the processing

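The pooled counts (367 higher, 138 lower), the counts for every compound (100 and 8) and the count of genes differing among compounds (710) stayed within 1.5 times with a filter of 1 CPM, RLE or unscaled sizes, no robust weights and DESeq2. Without a filter on low counts 2465 genes differed among compounds. The replicate block gave 56 pooled lower, 58 and 2 with every compound and 178 among compounds, with 253 pooled higher. Of the 108 genes called with every compound, 60 remained called with this block. The labels do not say whether the numbers pair the samples. Of 18 same-numbered pairs, 5 had a correlation of deviations over 0.1, and the values ran from -0.68 to 0.52. The library axis held most of these deviations, so the correlations cannot settle whether the samples are paired. With the library axis as a covariate the 5 counts were 1397, 1131, 381, 190 and 5607. This axis was taken from the spread within groups of the same libraries, so fitting it removes that spread by construction. With HPPE 2 and 3 summed, 4 genes fell with every compound and 169 differed among compounds. Without the 3 shallowest libraries the 5 counts were 201, 73, 45, 0 and 155. One mean for the 9 compound libraries gave 183 higher and 46 lower. The 45 and 0 shared genes without the shallow libraries are the lowest counts outside the removal of 1 library.

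Leaving out 1 library gave 143 to 471 pooled higher, 15 to 277 pooled lower, 38 to 130 higher and 0 to 23 lower with every compound, and 108 to 2933 among compounds. The low ends came without DMSO 2, and for the last count without HPPE 2; the high ends came without tin protoporphyrin 2. Without DMSO 1 the pooled counts were 188 and 20, and without tin protoporphyrin 3 the pooled lower count was 91. Of 2002 values for 77 named genes in 26 settings, 1831 kept their direction and call, 170 kept the direction and missed the threshold, and 1 reversed; 38 of the 77 kept the call in all 26. The reversed value was that of HSPA1A, which without HPPE in the pooled contrast was -0.064 (adjusted p = 0.859). The pooled call of HMOX1 was lost with one mean for the 9 libraries (4.65, adjusted p = 0.395). GREM1 stayed between 1.20 and 1.29 and VCL between 0.66 and 0.73 in all 26. The cause of these changes was not tested. Depth limits genes at a few counts per DMSO library, such as MALL, SPOCD1, EDN1 and CEBPD.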

Other observations

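Among the genes called with every compound and in no list, several encode regulators of signalling in the cell or long noncoding RNAs, chosen here after their values were seen. SGK1, a kinase that regulates ion transport, was at 68.9, 71.7 and 81.7 CPM in DMSO, 158 to 175 CPM with HPPE, 100.1 to 118 CPM with zinc protoporphyrin and 111 to 134 CPM with tin protoporphyrin. The compound libraries lay above all DMSO libraries, and the log2 fold change was 0.85 ± 0.08 (edgeR adjusted p = 7.95e-06). EPHA2, an ephrin receptor, was at 46.8, 38.5 and 53.6 CPM in DMSO and at 56.4 to 76.8 CPM with a compound (0.64 ± 0.10, edgeR adjusted p = 0.000717). NEAT1, the noncoding RNA that scaffolds paraspeckles, was at 57.8, 82.2 and 64.4 CPM and at 96.2 to 179 CPM (1.002 ± 0.15, edgeR adjusted p = 0.000953), with 1.03, 0.97 and 1.01 by compound.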
